A study of Homo sapiens with 6 samples.

Results

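Long intergenic non-coding RNAs (lincRNAs) are transcripts from loci between protein-coding genes that carry no annotated protein. The 465 lincRNAs described here were chosen by their read counts: rows that the deposited count table types as lincRNA and that had at least 20 reads in each of the 6 libraries, leaving out host genes of small nucleolar RNAs. They are 465 of 31582 rows in the table and of 3894 rows typed lincRNA. The minimum left 470 lincRNAs, of which SNHG8, SNHG9, SNHG15, SNHG19 and SNHG25 were removed as host genes. The level of each RNA therefore chose the members, and it is given as a description. The difference between the groups was not part of the rule.

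The libraries came from MDA-MB-231, a widely used cell line from triple-negative breast cancer, which lacks estrogen and progesterone receptors and HER2. One group of 3 carried a short hairpin RNA against CALR, which encodes the endoplasmic reticulum chaperone calreticulin. The other 3 carried a non-targeting control (NTC). All were grown in DMEM medium with 10% serum to about 70% confluence, and polyadenylated RNA was sequenced from strand-specific libraries. The title of the series places CALR under the hypoxia-inducible factor HIF-1 and in Wnt/β-catenin signalling. The labels name neither the hairpin sequence nor whether a group's libraries came from separate cultures, infections or clones, so the p-values measure the spread between these libraries, part of which may be technical.

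Library totals lay between 34639090 and 42425310 reads. Levels are given as depth-normalised counts (CPM, over library sizes scaled with TMM factors), which are compared only within a gene, or as deposited FPKM, which corrects for length and is used to compare genes. Fold changes are log2 ratios of CALR knockdown over control, with the standard error of the edgeR fit. The CALR transcript itself was left at 47.5%, 6.39% and 10.6% of the control mean in knockdown libraries 1, 2 and 3. Of the marker lists, the 5 genes of a mesenchymal breast cancer line (VIM, CD44, CAV1, AXL, KRT18) summed to between 3861 and 4858 CPM in the knockdown and between 2784 and 3285 CPM in the control libraries, and 2 of the 5, VIM (0.65 ± 0.16) and AXL (0.52 ± 0.22), were higher at an unadjusted p under 0.05, a p reached by 8.17% of all genes tested in that direction and by 7.36% in the other. The 5 luminal genes summed to between 17.7 and 23.8 CPM against between 17.7 and 20.01 CPM. The 5 blood genes reached at most 1.32 CPM in either group, and the 5 fibroblast and endothelial genes lay between 2.36 and 4.71 CPM against between 1.28 and 3.12 CPM, with PECAM1 the 1 gene of these lists past that p (1.19 ± 0.44) beside GATA3 of the luminal list (0.48 ± 0.21). The part of these markers in any lincRNA difference was not tested. In bulk RNA, fewer cells expressing a transcript and less transcript per cell cannot be told apart.

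Most lincRNAs are spliced and polyadenylated like messenger RNAs but stay at low abundance, and many remain in the nucleus. NEAT1 is the scaffold of paraspeckles, nuclear bodies built with the proteins SFPQ, NONO and PSPC1, and MALAT1 gathers in nuclear speckles beside splicing factors. Both are abundant in many tumours, and their genes lie close together on chromosome 11. NORAD, named LINC00657 in the count table, is a cytoplasmic RNA that binds RNA-binding proteins and is linked to genome stability.

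Promoter sequences were matched by symbol for 214 of the 465 lincRNAs, which have 246 windows of 300 bases in RefSeq (build GRCh38.p14). Each window runs from 250 bases before to 50 bases after the start. The windows of MALAT1 and LINC00657 are shown because these RNAs are among the most abundant described below. Those of GAPLINC, LINC00704 (now MANCR) and LINC01207 (now SMIM31) are shown because they are among the members of largest difference. Capitals mark ACGTG and GCGTG, the core letters of the hypoxia response element, and CTTTGA, the core of the TCF/LEF motif through which β-catenin acts, on either strand. NEAT1 had no entry.
MALAT1, chr11:65497488-65497787, plus strand: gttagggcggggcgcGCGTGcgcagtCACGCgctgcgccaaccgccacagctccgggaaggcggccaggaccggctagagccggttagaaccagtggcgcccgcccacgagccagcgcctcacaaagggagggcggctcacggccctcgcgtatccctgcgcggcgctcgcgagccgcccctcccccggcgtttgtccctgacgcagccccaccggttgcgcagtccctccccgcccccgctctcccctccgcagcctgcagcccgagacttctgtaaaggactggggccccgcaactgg
LINC00657, chr20:36050911-36051210, minus strand: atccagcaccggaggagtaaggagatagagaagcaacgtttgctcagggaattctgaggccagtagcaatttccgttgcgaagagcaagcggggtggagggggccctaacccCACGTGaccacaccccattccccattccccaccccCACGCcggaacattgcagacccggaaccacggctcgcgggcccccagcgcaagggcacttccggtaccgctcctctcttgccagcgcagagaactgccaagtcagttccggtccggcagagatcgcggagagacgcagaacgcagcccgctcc
GAPLINC, chr18:3466000-3466299, plus strand: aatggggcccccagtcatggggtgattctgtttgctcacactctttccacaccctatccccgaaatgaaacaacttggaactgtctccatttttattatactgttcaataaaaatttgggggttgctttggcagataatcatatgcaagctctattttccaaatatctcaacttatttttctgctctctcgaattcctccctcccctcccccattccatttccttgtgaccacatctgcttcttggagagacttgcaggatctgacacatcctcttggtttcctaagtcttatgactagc
LINC00704, chr10:4678021-4678320, minus strand: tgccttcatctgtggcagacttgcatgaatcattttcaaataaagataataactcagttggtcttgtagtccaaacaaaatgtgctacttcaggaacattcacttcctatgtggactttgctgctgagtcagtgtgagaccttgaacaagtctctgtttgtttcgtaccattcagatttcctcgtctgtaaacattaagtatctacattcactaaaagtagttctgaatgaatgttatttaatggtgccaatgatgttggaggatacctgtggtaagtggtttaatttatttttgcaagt
LINC01207, chr4:164753881-164754180, plus strand: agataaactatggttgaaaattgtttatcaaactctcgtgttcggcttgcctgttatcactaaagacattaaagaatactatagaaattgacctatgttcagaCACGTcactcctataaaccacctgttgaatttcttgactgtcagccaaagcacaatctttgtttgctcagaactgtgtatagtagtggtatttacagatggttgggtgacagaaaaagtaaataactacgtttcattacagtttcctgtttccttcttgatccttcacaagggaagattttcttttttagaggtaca

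In the MALAT1 window GCGTG occurred 2 times and ACGTG 0 times. The LINC00657 window held ACGTG 2 times and GCGTG 1 time, and both ACGTG matches overlap in the palindromic E-box CACGTG. The LINC01207 window held ACGTG 1 time, and neither core was in the GAPLINC or LINC00704 windows. No window of these 5 held CTTTGA. Over all 35116 windows of the same length in the table, 48.4% held at least 1 of the hypoxia cores, 7.26% held CACGTG and 12.9% held CTTTGA. Over the 246 lincRNA windows these shares were 58.1%, 7.32% and 9.76%. A match of a few letters is a description of the sequence.

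Inside 18 of the lincRNAs, on the same strand, lie 27 microRNA hairpins. The mature microRNAs were not measured in these libraries, and only the host transcripts are described. Of the 18 hosts, 1 had knockdown libraries all below the controls (background 11.2% of all genes tested) and 0 had them all above (background 11.3%). That host, AC058791.1, was chosen after its values were seen. MIR222HG and MIR210HG host microRNAs known in breast cancer and in hypoxia. Mature microRNAs of these 3 hosts are shown with the seed, bases 2 to 8, in capitals. The pair in MIR222HG shares a seed.
hsa-miR-29b-3p, in AC058791.1: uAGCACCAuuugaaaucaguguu
hsa-miR-221-3p, in MIR222HG: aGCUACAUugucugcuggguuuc
hsa-miR-222-3p, in MIR222HG: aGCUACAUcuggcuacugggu
hsa-miR-210-3p, in MIR210HG: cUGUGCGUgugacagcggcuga

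AC058791.1 gave 13.8, 16.2 and 17.1 CPM in knockdown libraries 1, 2 and 3 and 17.4, 23.6 and 25.4 CPM in control libraries 1, 2 and 3. Its 3 knockdown libraries were below every control, with a log2 fold change of -0.49 ± 0.21 and an edgeR adjusted p of 0.311. MIR222HG lay at 11.4, 15.97 and 6.79 CPM against 13.6, 10.7 and 13.5 CPM, so the groups overlapped (-0.15 ± 0.31). MIR210HG, whose microRNA is a classical hypoxia marker, lay at 20.3, 3.87 and 9.23 CPM against 6.67, 7.36 and 7.335 CPM (0.64 ± 0.49). Knockdown library 2 was the lowest of the 6 for it, and libraries 1 and 3 were the highest. The log2 fold changes of the 18 hosts ran from -0.49 to 0.64.

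The lincRNAs spanned a wide range of abundance. As a measure of read depth, the median was 2.79 CPM, and 87 had at least 10 CPM and 48 under 1 CPM. Per length, the median deposited FPKM was 1.68 against 7.53 for the protein-coding genes with the same read minimum, and 35 lincRNAs reached an FPKM of 10. As a share of all reads, the 465 lincRNAs took 0.353%, 0.482% and 0.371% in knockdown libraries 1, 2 and 3 and 0.492%, 0.472% and 0.506% in the controls. The 95% Wilson interval of the lowest of these shares ran from 0.351% to 0.355% and covers counting error only. Knockdown libraries 1 and 3 lay below every control and library 2 lay among them, and an exact two-sided permutation test gave p = 0.2. With 3 libraries against 3, that test cannot go below 0.1.

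The type given in the count table was checked against GENCODE 29, which holds 451 of the 465 identifiers. Of these, 412 are typed lincRNA there. Among the others, 13 are now transcribed pseudogenes and 8 are protein-coding: SMIM30 and SMIM31, which encode small membrane proteins, AC093323.1, TMEM225B, ATP6V1FNB, IQANK1, TMEM191C and C20orf204. "Intergenic" also holds loosely, since 87 gene bodies overlap a tested protein-coding gene and 112 lincRNAs start within 1000 bases of a coding gene's start on the opposite strand (24.8%, against 16.5% of the protein-coding genes with the minimum). Of the lincRNAs, 140 have a single exon (31.0%, against 1.53% of the coding genes), and 82 lay over 100 kb from a tested coding gene. The median exonic length was 2227 bases against 5140, and the median GC content was nearly equal at 47.9% and 48.0%. On the same strand 67, and on the other strand 128, share exon bases with another gene. The strand setting of the counting is not given in the sources used here, so reads of these members cannot be assigned with certainty.

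NEAT1 (ENSG00000245532.5, chr11:65422774-65445540 of GRCh38, plus strand) had a mean FPKM of 13.3. It gave 159.9, 321 and 125 CPM in knockdown libraries 1, 2 and 3 and 556, 319 and 422 CPM in the controls. Knockdown libraries 1 and 3 were the lowest of the 6, while library 2 lay at the level of control 2. The means were 202 ± 104 and 432 ± 119 CPM (SD, n = 3 each), a log2 fold change of -1.10 ± 0.35. That difference did not pass the threshold (edgeR adjusted p = 0.225), and the groups overlapped. The exact two-sided permutation test on log2 CPM gave p = 0.2.

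MALAT1 (ENSG00000251562.7, chr11:65497688-65506516, plus strand) had a mean FPKM of 19.2. Its level was 81.8, 237 and 48.1 CPM in the knockdown libraries and 304, 181 and 199.8 CPM in the controls. Libraries 1 and 3 of the knockdown were again the lowest, and library 2 lay above controls 2 and 3. The log2 fold change was -0.90 ± 0.51 (edgeR adjusted p = 0.413), the exact permutation test gave p = 0.3, and the fold change was -0.50 without knockdown library 3. Together MALAT1 and NEAT1 took 0.0227%, 0.0585% and 0.0152% of reads in the knockdown and 0.0878%, 0.0526% and 0.0666% in the control libraries.

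With knockdown library 2 left out, the fit gave -1.60 for NEAT1 (edgeR adjusted p = 0.0151) and -1.81 for MALAT1 (0.0160), but 15.5% of all genes tested passed the threshold as well. Knockdown library 2 was also the library with the least CALR transcript. Without NEAT1 and MALAT1, the other lincRNAs took 0.330%, 0.424% and 0.356% against 0.404%, 0.419% and 0.440% of reads, with an exact permutation p of 0.3.

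**Figure D1:**
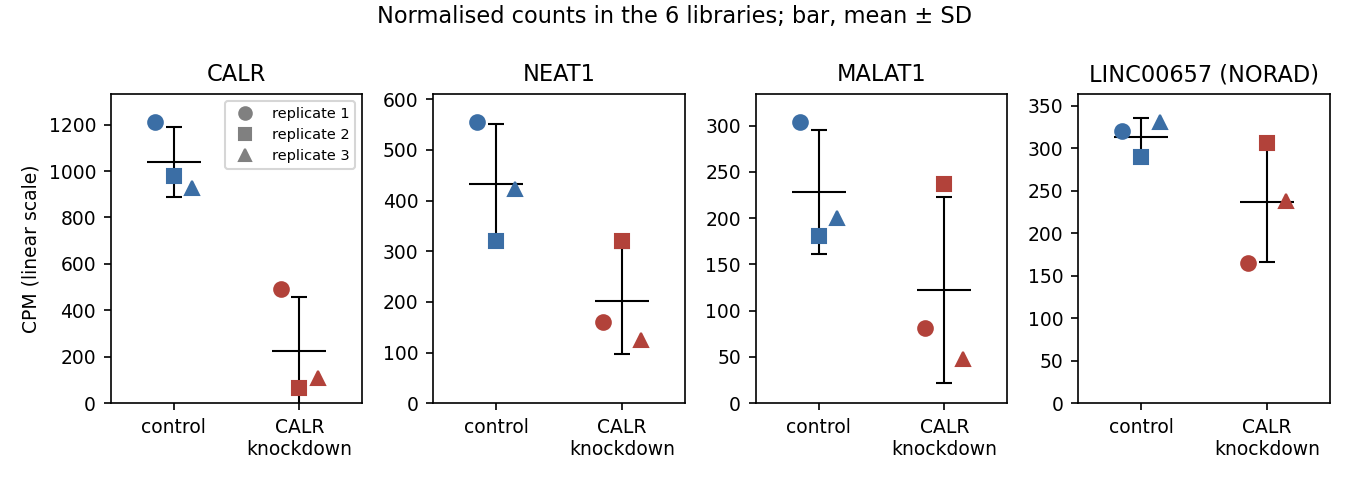
CPM on a linear axis from 0 for CALR, NEAT1, MALAT1 and LINC00657 (NORAD) in the 3 control libraries (blue) and the 3 CALR knockdown libraries (red); symbols give the replicate number and bars the mean ± SD. Knockdown replicate 2 (square) has the least CALR (66.4 CPM) and the highest NEAT1 of its group (321 CPM).

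The genes around the pair were measured too. Between NEAT1 and MALAT1 lies another member, CMB9-22P13.1, at 21.1, 23.6 and 17.1 CPM in the knockdown and 18.3, 17.3 and 16.3 CPM in the control libraries (0.25 ± 0.19), with overlapping groups. FRMD8, which encodes a regulator of the shedding protease ADAM17 and ends 9249 bases before NEAT1, gave 32.5, 26.4 and 39.2 CPM against 40.0, 52.6 and 48.5 CPM. Every knockdown library of FRMD8 was below every control (-0.53 ± 0.20, edgeR adjusted p = 0.276). Of 13 coding genes examined from 150 kb before to 225 kb after the start of NEAT1, 10 were above 0 and 3 below.

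**Figure D2:**
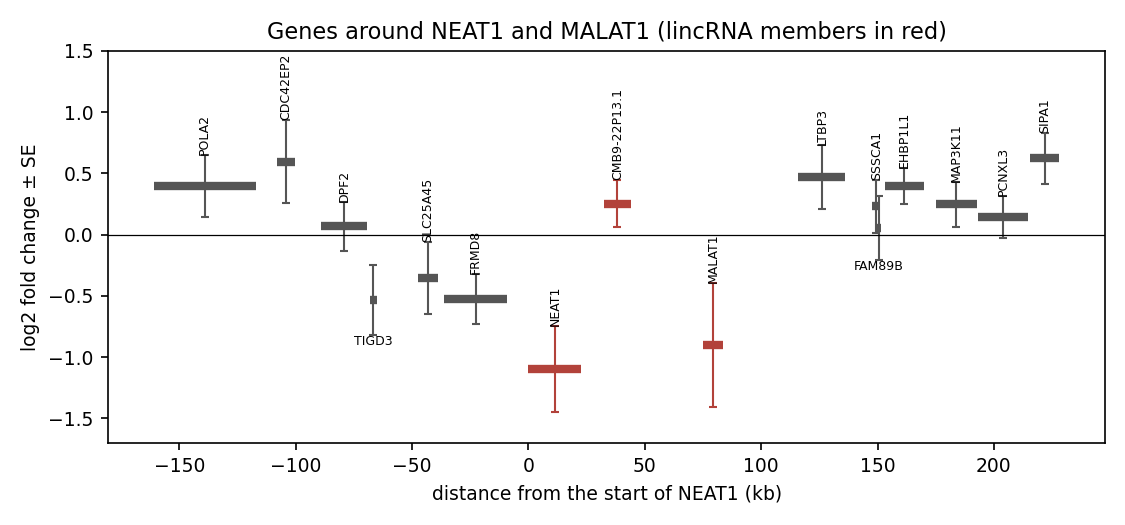
Log2 fold change of CALR knockdown over control ± SE against distance from the start of NEAT1 in kb; each horizontal bar spans a gene, lincRNA members in red. NEAT1 (-1.10) and MALAT1 (-0.90) lie lowest, and CMB9-22P13.1 between them is at 0.25.

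Proteins that build the bodies of these RNAs were read from lists. Of 19 paraspeckle proteins, 0 passed the adjusted threshold, and the median log2 fold change was 0.06 against -0.00 for all genes tested. HNRNPUL1, an RNA-binding protein, lay at 0.34 ± 0.15. At an unadjusted p under 0.05, of 20 nuclear speckle proteins, 0 were higher (background 8.17%) and 2 lower (background 7.36%), the splicing factor SRSF11 (-0.98 ± 0.32) and the kinase CLK1 (-0.52 ± 0.17). The kinase CLK4 lay at -0.66 ± 0.32. SRSF11 gave 34.6, 79.8 and 35.8 CPM in the knockdown and 101, 87.5 and 108 CPM in the controls, with library 2 again nearest the controls. Of 24 factors of nuclear RNA decay and end processing, 0 were higher and 4 lower, against the same background: the exosome nuclease DIS3 (-0.74 ± 0.28), RBM7 (-0.65 ± 0.25) and ZCCHC8 (-0.53 ± 0.17) of the nuclear exosome targeting complex, and the m6A reader YTHDC1 (-0.50 ± 0.22). All 6 had knockdown libraries below every control, but a low p favours groups apart, so this adds nothing to the p. Of the speckle and decay lists, other genes were apart without reaching that p. EXOSC6 and ZCCHC7 were below every control, and ACIN1, SRSF2, EXOSC10 and METTL3 were above every control. Of all these lists' genes, 0 passed the adjusted threshold.

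The level of LINC00657 (NORAD; chr20:36045622-36050960, minus strand; mean FPKM 48.7) was 165, 306 and 238 CPM in the knockdown and 320, 289 and 331 CPM in the controls. Libraries 1 and 3 of the knockdown were below every control and library 2 was not. The log2 fold change was -0.41 ± 0.22 (edgeR adjusted p = 0.404). It was -0.20 without knockdown library 1 and -0.63 without library 2, where it passed the threshold (edgeR adjusted p = 0.0474). Of 8 partners of NORAD, the export factor ALYREF lay at 0.62 ± 0.17 with groups apart, and the list had a median of 0.09.

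Other abundant members, by mean FPKM, were RP11-54H7.4 (now LINC03061), SFTA1P, LINC00973, LINC00998 (now SMIM30), RMRP, LINC00152 (now CYTOR), RP11-14N7.2 (now LINC02802), LINC01116 and RP11-160O5.1. RP11-54H7.4, at 124 FPKM the highest of all 465, gave 399, 576 and 592 CPM in the knockdown and 582, 557 and 608 CPM in the controls (-0.16 ± 0.19). Library 1 was low and the others overlapped. LINC00152, a cytoplasmic RNA raised in many carcinomas, lay at 110 CPM, 69.0 CPM and 123 CPM against 91.9, 98.9 and 97.2 CPM (0.07 ± 0.22), with a difference smaller than the spread. Its close copy MIR4435-2HG shares part of its sequence: 21.6% of the 50-base words of MIR4435-2HG transcripts occur in LINC00152, so reads could be split between them.

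LINC00973 was at 28.97, 48.1 and 56.2 CPM against 53.5, 69.7 and 66.2 CPM (-0.51 ± 0.25, edgeR adjusted p = 0.363), with library 3 of the knockdown above control 1, and -0.27 without knockdown library 1. LINC01116, a lincRNA beside the HOXD cluster, was higher in every knockdown library, at 78.0, 55.6 and 64.6 CPM against 45.1, 47.6 and 43.4 CPM (0.54 ± 0.18, edgeR adjusted p = 0.226). Its overlapping partner on the other strand, LINC01117, had 1.49, 1.94 and 2.5 CPM against 1.24, 1.24 and 0.940 CPM (0.79 ± 0.32). RP11-160O5.1, whose identifier GENCODE 29 lacks, was higher in every knockdown library too (0.60 ± 0.17). RMRP, the RNA of the mitochondrial RNA processing ribonuclease, lay at 1.13 ± 0.58, with 71 reads in control 3 (0.65 without that library), and 98.5% of its exon bases are shared with another gene on the same strand. The ranges of RP11-14N7.2 (0.30 ± 0.25), SFTA1P (0.08 ± 0.22) and LINC00998 (0.02 ± 0.17) overlapped.

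Across all 465 lincRNAs, 0 passed the adjusted threshold of 0.05 in edgeR, and 0 (0%) of the 16394 genes tested passed it (the smallest adjusted p was 0.115). At an unadjusted p under 0.05 the count was 52 (11.2%), against 15.5% of all genes tested. Of these 52, 20 were higher (4.30%, against 8.17% of all genes tested and 9.25% of those with the same read minimum) and 32 were lower (6.88%, against 7.36% and 5.94%). Knockdown and control libraries did not overlap for 34 higher members (7.31%, background 11.3%) and for 65 lower members (14.0%, background 11.2%). With library size alone in place of TMM factors, the split at that p was 15 higher and 54 lower (background 4.45% and 11%). With the same minimum the not-overlapping background shares were 12.6% and 9.60%. The median log2 fold change was -0.06, with 210 members above 0 and 255 below, against -0.00 for all genes tested and 0.04 for the protein-coding genes with the minimum. Antisense transcripts with the minimum had the same median of -0.06. By DESeq2, 9 higher and 7 lower members passed the adjusted threshold (3.44%, background 3.23%).

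**Figure D3:**
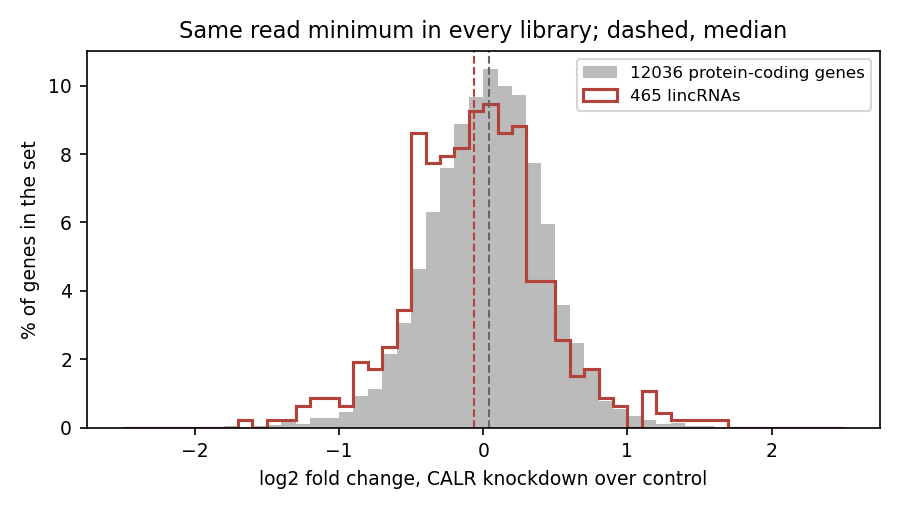
Distribution of log2 fold changes (% of each set in bins of 0.1) for the 465 lincRNAs (red outline) and the 12036 protein-coding genes with the same read minimum (grey); dashed lines are the medians, -0.06 and 0.04. The lincRNA outline extends further to the left.

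The shift was not even across libraries. The median lincRNA deviated from the control mean by -0.20 in knockdown library 1, by -0.00 in library 2 and by -0.02 in library 3. In the controls it deviated by at most 0.02. Knockdown library 2 was the highest of its group for 188 of the 465 lincRNAs (40.4%, against 34.5% of coding genes). For 67 lincRNAs (14.4%, against 16.5% of coding genes) libraries 1 and 3 lay below every control and library 2 did not, as for NEAT1 and MALAT1.

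GC content moved with these differences. In the tertile of lincRNAs lowest in GC, the median log2 difference was -0.34 in knockdown library 1, 0.09 in library 2 and -0.28 in library 3. In the middle tertile, it was -0.12, -0.04 and 0.04, and in the highest tertile, -0.11, -0.14 and 0.14. The median log2 fold changes of the low, middle and high tertiles were -0.18, 0.03 and 0.01. Across the 451 lincRNAs with a GC value, the correlation of the per-library difference with GC was 0.20, -0.16 and 0.34 in knockdown libraries 1, 2 and 3. Among the controls it was 0.04, 0.12 and -0.16. The correlations were stronger in the knockdown libraries across 12020 protein-coding genes, at 0.37, -0.22 and 0.57, and among the controls they were 0.03, 0.31 and -0.36. These correlations are across genes, which share libraries and are not independent replicates. MALAT1 (40.3% GC) and NEAT1 (44.1% GC) are below the lincRNA median. Removing the trend with GC in each library gave -1.06 for NEAT1 and -0.82 for MALAT1. The same step took LINC00973 from -0.51 to -0.18, LINC00657 from -0.41 to -0.26, RP11-14N7.2 from 0.30 to 0.17, RP11-497H16.9 from -1.17 to -0.77 and CTA-276F8.1 from -1.29 to -0.82. It took RP11-54H7.4 from -0.16 to -0.04, LINC00998 from 0.02 to 0.35 and LINC00152 from 0.07 to 0.25.

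**Figure D4:**
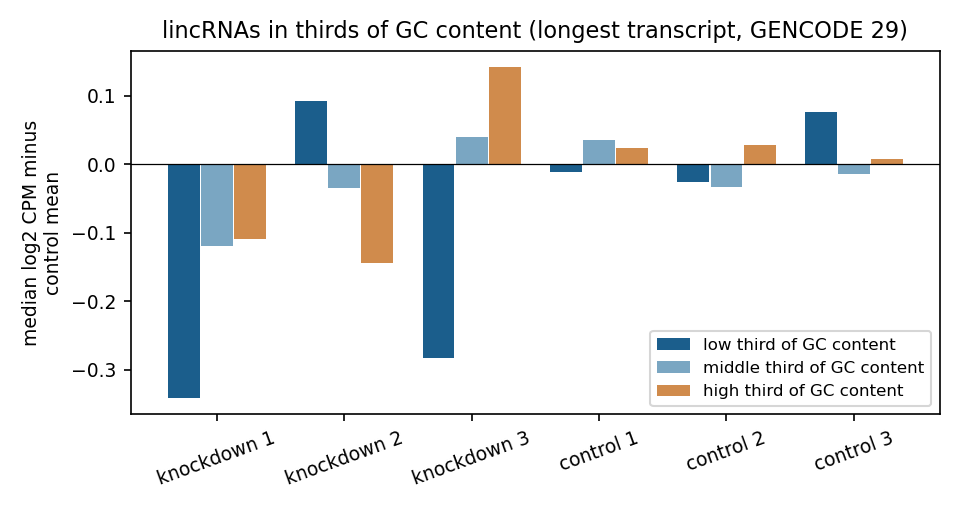
Median log2 CPM minus the control mean in each library, for lincRNAs in tertiles of GC content (451 with a GC value). The low-GC tertile lies at -0.34 and -0.28 in knockdown libraries 1 and 3 and at 0.09 in library 2.

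Among members higher in every knockdown library, GAPLINC had the largest difference. Located at chr18:3466250-3478978, it is known as a lincRNA of gastric cancer that acts on CD44. It gave 14.2, 6.01 and 15.9 CPM against 3.23, 4.69 and 3.599 CPM (1.65 ± 0.37, edgeR adjusted p = 0.164), so library 2 was nearest the controls. LINC01444, on the same chromosome, gave 9.66, 7.30 and 7.06 CPM against 2.14, 3.93 and 2.87 CPM (1.43 ± 0.29, edgeR adjusted p = 0.149). LINC01605 followed with 1.34 ± 0.33, RP11-83B20.1 with 1.21 ± 0.34, and AC021218.2 with 1.17 ± 0.30.

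LINC00704, known as MANCR and a lincRNA described in aggressive breast cancer, was at 36.4, 66.1 and 24.3 CPM against 15.2, 19.1 and 22.3 CPM (1.16 ± 0.35, edgeR adjusted p = 0.214; 0.69 without knockdown library 2). Its nearest tested coding gene, AKR1E2, an aldo-keto reductase 108475 bases away, was apart in the same direction at 1.12 ± 0.38 (background 11.3% of all genes tested). FAM225A gave 15.1, 31.0 and 24.4 CPM against 8.89, 11.7 and 12.2 CPM (1.11 ± 0.28). FAM225B gave 10.7, 23.4 and 20.1 CPM against 6.19, 8.54 and 7.68 CPM (1.28 ± 0.30). These lie 1573 bases apart on chromosome 9 on opposite strands, and 90.0% of the 50-base words of FAM225A occur in FAM225B transcripts. Reads could be split between the copies, so their values are uncertain and not independent. Their nearest tested coding gene, the copper transporter relative SLC31A2, was also apart and higher (0.85 ± 0.22, against the same background). A link between these members and their neighbours was not tested.

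Among the members lower in every knockdown library, LINC01207 had the smallest adjusted p. It gave 1.89, 1.66 and 1.45 CPM against 4.76, 4.83 and 3.78 CPM (-1.42 ± 0.26, edgeR adjusted p = 0.145). GENCODE 29 types it as protein-coding SMIM31. TPTEP1, now typed a transcribed pseudogene, had the largest difference at -1.63 ± 0.57, resting on 0.571, 2.76 and 1.66 CPM against 8.57, 3.18 and 3.74 CPM, where control 1 stood far above the other controls (-1.05 without it). LINC01106 gave 4.26, 2.11 and 2.95 CPM against 8.91, 5.79 and 6.12 CPM (-1.16 ± 0.32). CTD-2162K18.4 starts 328 bases from ZNF850, a zinc finger gene, on the other strand and lay at -1.23 ± 0.34, while ZNF850 lay at -0.31 ± 0.28 with overlapping groups. The others of this set were CH17-360D5.2 (-1.35 ± 0.41), CTA-276F8.1 (-1.29 ± 0.30), CTC-459F4.1 (-1.22 ± 0.30) and RP11-497H16.9 (-1.17 ± 0.35). The nearest tested coding genes of LINC01207 and CTC-459F4.1 were apart in the opposite direction to them (background 11.3% of all genes tested). These were TRIM61 (0.27 ± 0.27), 150651 bases away, and UQCRFS1 (0.38 ± 0.15), 1444472 bases away. TRIM61 had a mean of 2.03 CPM in the knockdown and 1.68 CPM in the controls. For the other lower members of this set, the groups of the nearest tested coding gene overlapped. HIF1A-AS2, antisense to the gene of the HIF-1 subunit and chosen after its values were seen, was lower at -0.73 ± 0.25.

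**Figure D5:**
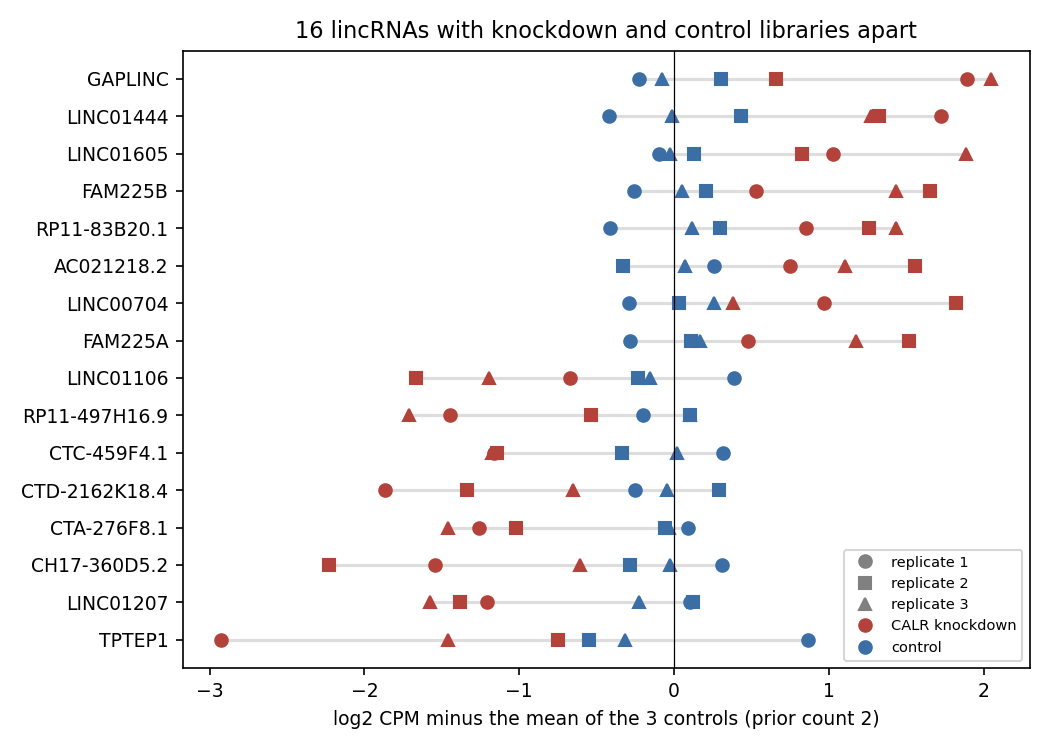
Log2 CPM minus the mean of the 3 controls (prior count 2) for the 16 lincRNAs named by their difference, 8 higher and 8 lower, in each control (blue) and knockdown (red) library. The groups do not overlap for any of these, which is how they were chosen.

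Lists of long non-coding RNAs linked to hypoxia, to Wnt or MYC and to breast cancer mixed members with RNAs outside the rule. At an unadjusted p under 0.05, of 6 hypoxia-linked RNAs tested, 0 were higher (background 8.17%) and 2 lower (background 7.36%), NEAT1 and UCA1, an RNA outside the 465 (1.43, 7.30 and 13.8 CPM against 37.9, 20.5 and 21.6 CPM; -1.83 ± 0.64), and the median was -0.77. LUCAT1, a stress-linked member of that list, lay at 0.66 ± 0.37. Of 3 Wnt- or MYC-linked RNAs tested, 0 passed that p in either direction, including PVT1 (-0.20 ± 0.18) and MIR17HG (-0.19 ± 0.49). Of 8 breast cancer RNAs tested, 0 were higher and 3 lower (NEAT1, UCA1 and TINCR, at -1.89 ± 0.51), against the same background, with a median of -0.77. TINCR is under the read minimum in the knockdown, with 3, 18 and 14 reads against 46, 40 and 49. The hypoxia and breast cancer lists share NEAT1, MALAT1, UCA1 and H19, the Wnt or MYC and breast cancer lists share CCAT1, which was not tested, and 0 genes in them passed the adjusted threshold.

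Members were set beside their neighbours. For the 112 lincRNAs head to head with a coding gene, fold changes had the same sign in 65 pairs (r = 0.25 across pairs). For 339 lincRNAs and their nearest tested coding gene elsewhere, the sign was the same in 182 pairs (r = 0.12). For the 82 lincRNAs whose nearest tested coding gene was over 100 kb away, it was the same in 47 pairs (r = 0.11). All are descriptions of the same 6 libraries. In 26 of the 112 the lincRNA's groups were apart, 6 higher (5.36%, background 11.3%) and 20 lower (17.9%, background 11.2%). In 3 of the 26 the coding gene was apart in the same direction, all chosen after their values were seen: ZNF674-AS1 and ZNF674 (-0.30 and -0.82), KLHL7-AS1 and KLHL7 (-1.04 and -0.59) and FAM83H-AS1 and FAM83H (-0.69 and -0.44). That count is near the share of all genes tested that were apart in a given direction (11.3% higher, 11.2% lower). BAIAP2-AS1 and BAIAP2 were apart in opposite directions (-0.45 and 0.44). Of 45 pairs of members within 100 kb of each other, 21 had the same sign.

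The read minimum removes RNAs that are low in 1 group. There were 25 lincRNAs just inside it, with a lowest library of 20 or 21 reads, and 21 just outside, with 18 or 19 reads. In all, 187 lincRNAs, these 21 among them, had a mean of at least 20 reads but a library below. Of the 187, 104 were below only in knockdown libraries, 23 only in controls and 60 in both. These 187 were not tested as a set, since the rule that leaves them out depends on which group is low.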

How the data were processed

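The 6 libraries were read from the deposited tables of counts and FPKM per gene. The submitters' processing notes name FastQC 0.9.5, TopHat2 and GRCh38. How reads were counted, with which strand setting and gene models, is not given in the sources. The deposited counts are whole reads per gene with no scaling, and the authors' FPKM are scaled by gene length and depth. Genes passing edgeR's filterByExpr (16394) were fitted with the quasi-likelihood test of edgeR 4.0.16 (R 4.3.3), with TMM factors and no covariate. Benjamini-Hochberg adjustment ran over all of them. DESeq2 1.42.0 and limma 3.58.1 served as alternatives. Coordinates, lengths and GC content came from GENCODE 29 and sequences from RefSeq (GRCh38.p14). Wilson intervals cover counting error only.

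The members and lists were chosen with earlier results of these data known. Named genes were MALAT1, NEAT1, the 10 other members of highest mean FPKM, any member past the adjusted threshold, and the 8 in each direction of largest fold change among those with groups apart and an unadjusted p under 0.05, with their coding neighbours; of each list, the 2 of largest fold change. A few of these genes are not reported here.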

Additional observations from a re-analysis of the deposited data

How the results depend on the processing

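The number of lincRNAs past the adjusted threshold was 0 except with no low-count filter (19, with 3.13% of all genes), with DESeq2 (16, with 3.23%) and, leaving out 1 library at a time, between 0 and 33, the 33 without knockdown replicate 2 (15.5% of all genes). The number higher was 13 of 326 with log2(FPKM + 0.1) (5.50% of all genes) and, of 465, between 12 without control replicate 3 (2.87%) and 34 without knockdown replicate 2 (17.9%). The number lower was 54 of 465 with library size alone (11%), 50 of 326 with log2(FPKM + 1) (10.7%), 15 of 277 with a minimum of 50 reads and 56 of 652 with a mean of at least 20 reads (7.36% for both), and, of 465, between 14 without control replicate 3 (4.36%) and 64 without knockdown replicate 2 (17.7%). The median was -0.19 with library size alone and -0.19 with log2(FPKM + 0.1); library size alone moved the median of all genes to -0.13, and the lincRNAs lay below it. It was between -0.08 and -0.03 when a library was left out. MALAT1 passed the threshold with no filter (-0.89) and ranged from -1.81 to -0.50 when a library was left out. NEAT1 did so with no filter (-1.09) and ranged from -1.60 to -0.83. The cause of these changes was not tested.

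Deviations from the group means correlated at 0.20, -0.12 and -0.22 between same-numbered libraries and at -0.20 to 0.36 between differently numbered ones. With 3 libraries in each group, these values cannot decide whether the replicate numbers pair the libraries. A replicate block gave 0 past the adjusted threshold, 18 higher, 29 lower, a median of -0.08, -1.22 for MALAT1 and -1.20 for NEAT1.

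Of the 28 named lincRNAs, 24 kept their sign throughout. With library size alone, log2(FPKM + 1) and log2(FPKM + 0.1) the sign turned for SFTA1P (-0.0791, -0.0926 and -0.0937), LINC00998 (-0.11, -0.12 and -0.12) and LINC00152 (-0.0924, -0.0973 and -0.10), and for LINC00998 with a minimum CPM of 1 (-0.0189). Leaving out a library gave from -0.24 to 0.0069 for RP11-54H7.4, from -0.0593 to 0.30 for SFTA1P, from -0.0778 to 0.15 for LINC00998 and from -0.0858 to 0.28 for LINC00152. These 4 lie near 0. Of the 28, 14 passed the adjusted threshold without knockdown replicate 2 (15.5% of all genes), 14 with DESeq2 (3.23%) and 16 with no filter (3.13%). Of the same 28, 16 were named by a large difference in these libraries. That choice favours both a kept sign and passing, so these counts are no further support. Depth limits precision, with as few as 20 reads in a member's lowest library.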
